A study of Mus musculus with 5 samples.

Results

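The Notch pathway was followed in keratinocytes sorted from mouse skin wounds, in a comparison of Nrf2 conditional knockout (cKO) with wild-type (WT) cells. The genes were chosen by name: 3 receptors (Notch1, Notch2, Notch3), the ligands Jag1, Jag2 and Dll1, the nuclear effector Rbpj, the target repressors Hes1 and Hey1, and the glycosyltransferase Lfng. Of these 10 symbols, 9 matched a gene among the 10664 genes of the comparison, and Hey1 was not analysed here. The cKO group had 2 samples of genotype K14Cre-ER; Nrf2 flox/flox, and the WT group had 3 littermate samples of genotype K14Cre-ER; Nrf2 +/+. Both groups thus carried the same Cre, which the keratin 14 promoter drives in basal keratinocytes and which is switched on by a drug. The drug, its schedule, the age of the mice and whether each sample was a separate animal are not given in the sources used here. Cells came from a ring of skin around a 10 mm wound, 5 days after wounding, and were sorted as live, CD49f-positive and negative for a blood lineage antibody mix. No value per sample was analysed here, so each gene has 1 fold change, 1 mean level and 1 p-value for the whole comparison, and genes of alike pattern across samples could not be sought.

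Notch receptors are membrane proteins that are cut after a ligand on a neighbouring cell binds them. The freed inner part enters the nucleus, joins the DNA-binding protein RBPJ and switches on repressors of the HES and HEY families. In the epidermis the pathway drives basal keratinocytes to leave the cell cycle and become spinous cells. Nrf2, encoded by Nfe2l2, is the transcription factor of the antioxidant response, and a link from it to Notch1 has been described in mouse cells outside the skin.

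None of the 9 Notch genes differed between cKO and WT cells past the authors' threshold, a false discovery rate (FDR) under 0.05. Over all genes, 278 of 10664 passed in the authors' deposited table, which is 2.61%, with 229 lower (2.15%) and 49 higher (0.459%) in cKO. Of the Notch genes 4 had lower and 5 had higher values, and their median log2 fold change of 0.0087 (cKO relative to WT, as all fold changes here) stood beside 0.0040 for all genes. The median absolute log2 fold change was 0.19 for the Notch genes and 0.37 for all genes, and 5 of the 9 lay within 0.25 of 0. These medians were not matched for level, and genes of low level spread more. Among genes of like level, the share at least as far from 0 ran from 9.61% for Notch2 to 98.4% for Rbpj, with 52.8% for Notch1. At an unadjusted p under 0.05, 1 of the 9 passed, Lfng, beside 8.36% of all genes in the authors' deposited table. The genes that lay farthest from 0 were Lfng on the higher side and Jag2 and Hes1 on the lower side.

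**Figure D1:**
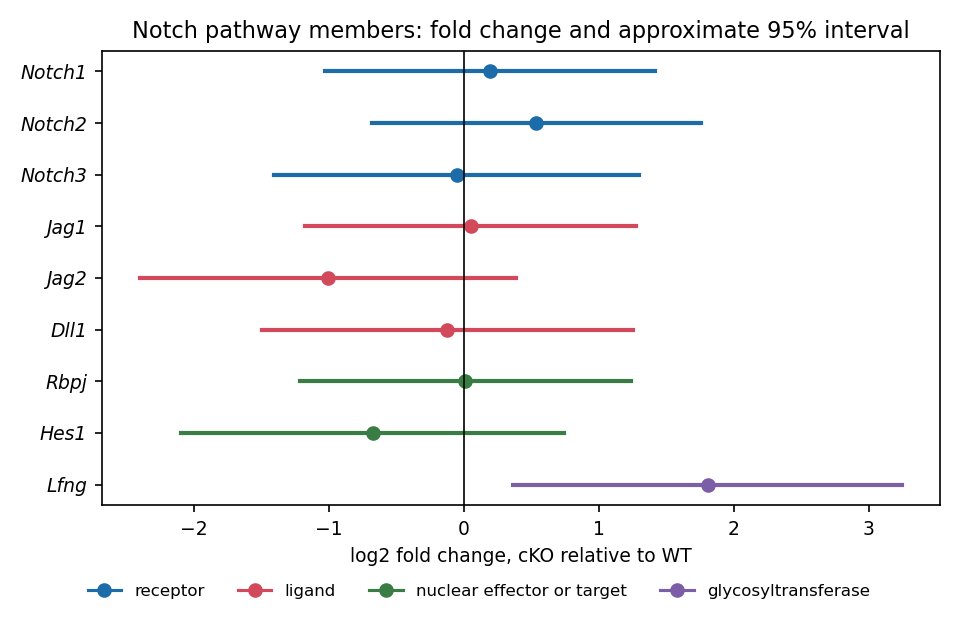
Log2 fold change of cKO relative to WT (x axis) for each of the 9 Notch genes (y axis), coloured by role. Points are the authors' values and lines are approximate 95% intervals built from the authors' p-values of genes of like level; the line of Lfng, from 0.37 to 3.24, does not reach 0, and the other 8 cross it.

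An error typical of genes of like level was read back from the authors' p-values. At such levels as that of Notch1 it does not carry a gene's own spread between samples. For each gene, the standard error was taken as the median ratio of fold change to z value among the 200 genes nearest in level with a fold change of the same sign. It ran from 0.62 to 0.73 for the 9 genes, and the 95% intervals below are approximate and not adjusted for the number of genes. In the plot of fold changes and intervals, 7 of the 9 intervals held a log2 change of 1 upward and 7 held one downward. A missed threshold therefore did not show that these genes were equal in the 2 genotypes. Levels in each genotype were worked out from the mean level and the fold change, assuming that both genotypes weighed alike in the mean, and are given as deposited, in CPM (counts or abundances scaled to a fixed library total). Whether CPM was scaled for gene length is not stated, so levels are not ranked between genes.

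The promoters of Lfng, Jag2 and Notch1 are shown because the first pair had the widest fold changes on each side and the third belongs to the receptor with a described link to Nrf2. Each is a RefSeq window on build GRCm38.p6, from 250 bases before to 50 bases after the annotated start, written 5′ to 3′ on the gene's strand. Capitals mark matches, on either strand, to the core recognised by RBPJ (GTGGGAA), the core recognised by NRF2 (TGACNNNGC), the E-box (CACGTG) and sites described for HES and HEY proteins (CACGAG and CACGCG). The windows lie at chr5:140607091-140607390 (plus strand, Lfng), chr12:112929446-112929745 (minus strand, Jag2) and chr2:26503773-26504072 (minus strand, Notch1).
Lfng: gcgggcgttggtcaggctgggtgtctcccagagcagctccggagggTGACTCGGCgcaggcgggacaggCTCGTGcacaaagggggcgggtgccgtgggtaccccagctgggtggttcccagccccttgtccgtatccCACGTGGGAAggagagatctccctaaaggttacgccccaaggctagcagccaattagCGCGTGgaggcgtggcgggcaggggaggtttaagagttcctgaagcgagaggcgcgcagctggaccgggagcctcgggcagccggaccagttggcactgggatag
Jag2: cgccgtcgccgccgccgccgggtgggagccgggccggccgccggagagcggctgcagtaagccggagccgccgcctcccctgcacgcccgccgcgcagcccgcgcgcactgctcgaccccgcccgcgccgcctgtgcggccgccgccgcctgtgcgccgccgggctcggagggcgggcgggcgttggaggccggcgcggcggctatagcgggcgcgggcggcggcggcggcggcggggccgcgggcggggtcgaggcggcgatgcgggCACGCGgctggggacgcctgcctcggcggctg
Notch1: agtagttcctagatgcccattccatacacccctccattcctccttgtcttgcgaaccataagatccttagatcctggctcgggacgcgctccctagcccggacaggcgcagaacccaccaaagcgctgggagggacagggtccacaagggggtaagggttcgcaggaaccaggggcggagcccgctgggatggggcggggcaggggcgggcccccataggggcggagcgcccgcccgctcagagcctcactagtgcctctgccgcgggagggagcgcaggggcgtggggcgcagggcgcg

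The Lfng window held a match to each of the 4 kinds. Counting from 1 at its 5′ end, the NRF2 core began at position 47, the HES and HEY sites at positions 70 and 196, the E-box at position 139 and the RBPJ core at position 142. The last pair overlap, since they share the letters GTG. The Jag2 window held 1 match, a HES and HEY site at position 269, and the Notch1 window held no match. The Notch1 window follows a RefSeq start inside the GENCODE interval of the gene, whose 5′ end on the minus strand is 26516663. Bases around that end were not searched. Among all 10 windows of the Notch genes, which covered 8 of them, Lfng was the gene with an RBPJ core, an NRF2 core or an E-box, while HES and HEY sites stood in windows of 6 genes (Dll1, Jag1, Jag2, Lfng, Notch2 and Notch3). Of 32851 windows of this length, 6.38% held the RBPJ core, 12.4% the NRF2 core, 7.15% the E-box and 14.7% a HES and HEY site. The Jag2 window was 86.0% G or C, the Lfng window 66.7% and the Notch1 window 68.3%, beside a median of 52.7% over all windows. These matches describe the letters and were not tested against binding or expression.

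The receptor genes had fold changes between -0.05 and 0.54, and none passed the threshold. Notch1 (ENSMUSG00000026923, chromosome 2, 26457903 to 26516663, minus strand, mm10) is a main Notch receptor of the epidermis and is known there as a brake on growth. Its level was 132 CPM in WT and 151 CPM in cKO, a log2 fold change of 0.19 (95% interval -1.03 to 1.42, adjusted p = 1 in the authors' deposited table). Of 1041 genes within 0.5 log2 units of its level, 52.8% had a fold change at least as far from 0. Notch1 thus lay close to the middle of genes of its level.

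Notch2 (ENSMUSG00000027878, chromosome 3, 98013527 to 98150361, plus strand) acts beside Notch1 in the epidermis. Its level was 227 CPM in WT and 329 CPM in cKO, a log2 fold change of 0.54 (95% interval -0.68 to 1.76, adjusted p = 1 in the authors' deposited table). Genes of its level spread less than lower genes, and 52 of 541 genes of like level (9.61%) were at least as far from 0. Of those 541 genes 2 were called, the nearest rise being 3.43. Notch3 (ENSMUSG00000038146, chromosome 17, 32120820 to 32166852, minus strand) is also the Notch receptor of mural cells, the pericytes and smooth muscle around vessels. Its level was 41.3 CPM in WT and 39.8 CPM in cKO, a log2 fold change of -0.052 (95% interval -1.40 to 1.30, adjusted p = 1 in the authors' deposited table). Pericyte and smooth muscle genes, of which 5 were in the table, had a median of -1.35, with 0 of 5 called and all 5 values lower in cKO. Their part in the value of Notch3 was not tested.

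The ligand genes did not pass either, with fold changes of -1.01, -0.12 and 0.05. Jag2 (ENSMUSG00000002799, chromosome 12, 112907819 to 112929776, minus strand) encodes a ligand of the Jagged type made in basal epidermis. Its level was 16.0 CPM in WT and 7.98 CPM in cKO, which is 2.01-fold lower in cKO by value (log2 fold change -1.01, 95% interval -2.40 to 0.39, adjusted p = 1 in the authors' deposited table). Among 1763 genes of like level, 17.5% were at least as far from 0, and the smallest called fall was -2.43. The other Jagged ligand gene, Jag1 (ENSMUSG00000027276, chromosome 2, 137081456 to 137116644, minus strand), had 74.7 CPM in WT and 77.4 CPM in cKO. Its log2 fold change was 0.051 (95% interval -1.18 to 1.28, adjusted p = 1 in the authors' deposited table). Whether the gap between Jag1 and Jag2 exceeds their errors was not tested, and their intervals overlapped.

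Dll1 (ENSMUSG00000014773, chromosome 17, 15367354 to 15376872, minus strand) encodes a Delta-type ligand, which in human epidermis marks clusters of stem cells. Its level was 18.1 CPM in WT and 16.7 CPM in cKO, a log2 fold change of -0.12 (95% interval -1.50 to 1.25, adjusted p = 1 in the authors' deposited table). Dll1 and Jag1 thus sat near 0, while Jag2 was the ligand gene with a lower value of about 1 log2 unit.

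Rbpj (ENSMUSG00000039191, chromosome 5, 53466152 to 53657362, plus strand), which encodes the DNA-binding partner of every cleaved Notch receptor, had the value nearest to 0 of the 9 genes. Its level was 77.7 CPM in WT and 78.2 CPM in cKO, a log2 fold change of 0.0087 (95% interval -1.22 to 1.23, adjusted p = 1 in the authors' deposited table). Of 1370 genes of like level, 98.4% lay farther from 0 or as far.

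Hes1 (ENSMUSG00000022528, chromosome 16, 30064384 to 30067796, plus strand) encodes a repressor that is a direct Notch target and holds spinous cells in their immature state. Its level was 11.4 CPM in WT and 7.14 CPM in cKO, a log2 fold change of -0.68 (95% interval -2.10 to 0.74, adjusted p = 1 in the authors' deposited table). Of 1722 genes of like level, 37.6% were at least as far from 0. Nrarp, another direct Notch target that feeds back on the receptor, lay at -0.64 with 13.0 CPM in the authors' deposited table, also without passing.

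Lfng (ENSMUSG00000029570, chromosome 5, 140607320 to 140615545, plus strand) encodes Lunatic fringe, which adds a sugar to Notch and so shifts its response from Jagged toward Delta ligands. It had the largest fold change of the 9 genes, at a level of 0.799 CPM in WT and 2.79 CPM in cKO. The log2 fold change of 1.80 (95% interval 0.37 to 3.24) did not pass, with unadjusted p = 0.0124 and adjusted p = 0.247 in the authors' deposited table. Such a distance was common at this level: 126 of 473 genes of like level (26.6%) were at least as far from 0, and 60 of them (12.7%) were called. The smallest called rise among them was 2.48. A pseudocount is named in the title of the authors' deposited table, and whether it bears on the fold change of Lfng was not tested. The call depended on the scaling of the p-values. With an empirical null, in which z values made from the authors' deposited table were divided by their robust SD of 0.821, Lfng had adjusted p = 0.0464, beside 5.22% of all genes called. The alternative filter of 5 CPM removed Lfng.

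**Figure D2:**
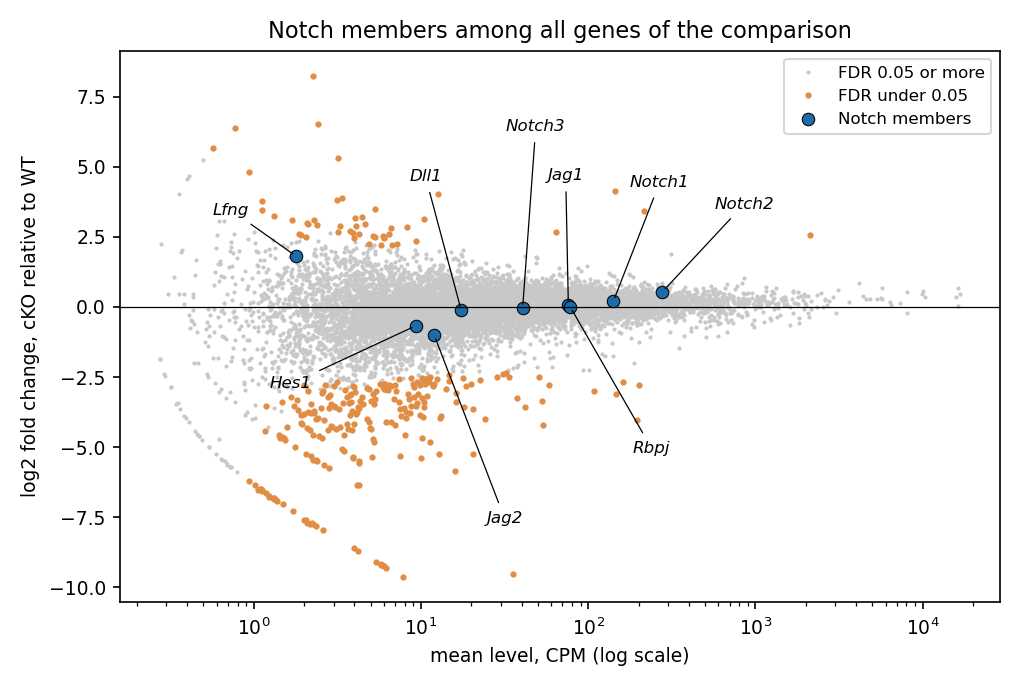
Mean level in CPM (x axis, log scale) against log2 fold change of cKO relative to WT (y axis) for all 10664 genes, with the 9 Notch genes in blue and genes with an FDR under 0.05 in orange. The blue points lie between -0.68 and 0.54 except for Jag2 at -1.01 and Lfng at 1.80, and all are inside the band of genes that were not called.

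The plot of all genes by level shows the spread against which these values stand. The smallest called fall of any gene was -2.36 and the smallest called rise 2.20 in the authors' deposited table, both wider than the fold change of every Notch gene here. Annotated genes overlapping Notch1, Notch2, Notch3, Rbpj, Jag2 or Dll1 exist in GENCODE vM21, most of them on the opposite strand, and none was among the 10664 genes. Whether reads were counted by strand is not stated.

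The rest of the pathway gave the same count. Of 60 further Notch pathway genes listed, 41 were in the table, of which 22 had lower and 19 higher values. Of these 41, 0 were called, beside 2.61% of all genes, so few calls would be looked for among so few genes. At an unadjusted p under 0.05, 2 of the 41 passed in the authors' deposited table, beside 8.36% of all genes. The median log2 fold change of the 41 genes was -0.025 and their median absolute value 0.20. The receptors and ligands outside the chosen genes were represented by Dlk2, a Delta-like protein without the usual receptor-binding domain, with -1.17 at 2.89 CPM in the authors' deposited table. Notch4, Dll3, Dll4, Dlk1 and Dner were not analysed here.

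Among enzymes that put sugars on Notch, Rfng, the Radical fringe gene, lay at 0.81 in the authors' deposited table. The glucosyltransferase gene Poglut1 had -0.47 and the fucosyltransferase gene Pofut1 -0.46 in the same table. The sheddases and the gamma-secretase complex, which cut the receptor, had 8 genes in the table with values from -0.61 (Aph1a) to 0.37 (Adam17), and a median of 0.0093. Aph1b, of gamma-secretase, lay at 0.33 in the authors' deposited table. Among the ligases that let a ligand pull on its receptor, Mib1 had 0.086, Neurl1b 0.079 and Neurl3 -0.15 in the authors' deposited table. By value, the genes of the cutting and pulling machinery that were in the table thus lay within 0.61 log2 units of 0. Their intervals were wider, such as -1.97 to 0.75 for Aph1a. Psen2, Aph1c, Mib2 and Neurl1a were not analysed here.

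The 2 of 41 further genes with an unadjusted p under 0.05, beside 8.36% of all genes, were both in the list of receptor regulators. Dtx4, a Deltex ubiquitin ligase, lay at -2.14 on the log2 scale with a mean of 5.29 CPM (adjusted p = 0.184 by the FDR of the authors' deposited table), with a 95% interval of -3.63 to -0.66. With the empirical null on the p-values of the authors' deposited table it had adjusted p = 0.0287, beside 5.22% of all genes called. Numbl, a relative of the Notch antagonist Numb, had -1.76 at a mean of 6.25 CPM (adjusted p = 0.396 by the FDR of the authors' deposited table), with a 95% interval of -3.21 to -0.30. Numb itself had 0.023, and the ligase genes Dtx2 and Itch lay at 0.48 and -0.23 in the authors' deposited table.

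Of the nuclear partners, 12 genes had a median of -0.051. The largest values were 0.75 for the coactivator gene Maml1 and -0.78 for Ep300, the acetyltransferase that it recruits, with Maml2 at -0.46 and Snw1 at -0.34 in the authors' deposited table. Of the further targets, 7 genes had a median of 0.11. Gata3, a transcription factor gene, had 0.76 and Nfkb2, of the NF-kappa-B family, 0.36 in the authors' deposited table. Cdkn1a, the cell cycle inhibitor that Notch1 raises in mouse keratinocytes, had -0.060 at 2152 CPM. None of these nuclear partners and targets passed the threshold.

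**Figure D3:**
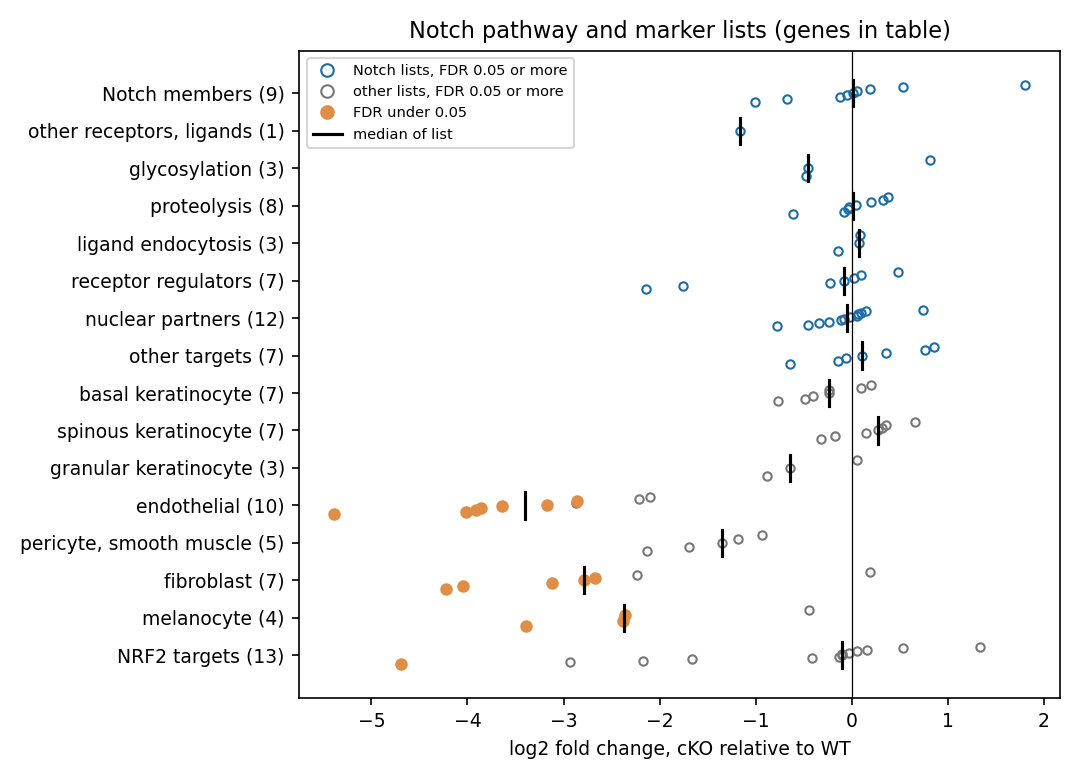
Log2 fold change of cKO relative to WT (x axis) for each gene of the Notch lists (blue), of marker lists (grey) and, in either, of genes with an FDR under 0.05 (orange), by list (y axis, with the number of genes in the table); black bars are medians. All Notch lists lack orange points, whereas 7 of 10 endothelial, 5 of 7 fibroblast and 3 of 4 melanocyte genes are orange and lower in cKO.

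The states that Notch governs in the epidermis were also read from markers, shown in the plot of the lists. Basal keratinocyte genes had 0 of 7 called and a median of -0.24, with 5 lower and 2 higher values. Itgb1 lay at -0.77, Itga6 at -0.49, Itgb4 at -0.41, Krt14 at -0.24 and Krt5 at 0.096 in the authors' deposited table. Spinous keratinocyte genes had 0 of 7 called and a median of 0.27, with 2 lower and 5 higher values. Krt1 lay at 0.27, Krt10 at 0.36, Dsc1 at -0.18 and Calml3 at -0.32 in the authors' deposited table. Granular genes had 0 of 3 called and a median of -0.64, with Hrnr at -0.88, Lor at -0.64 and Ivl at 0.052 in the authors' deposited table. Keratinocyte markers of the basal and spinous lists were present at 52.9 CPM (Calml3) to 16176 CPM (Serpinb2). These end genes were not among the planned spinous markers.

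Of the markers of other cells, the endothelial, fibroblast and melanocyte lists held called genes, beside 2.61% of all genes called. Endothelial genes had 7 of 10 called, all lower, and their summed level was 176 CPM in WT and 19.7 CPM in cKO. Fibroblast genes had 5 of 7 called, all lower, at 1739 CPM and 423 CPM, and melanocyte genes had 3 of 4 called, all lower, at 123 CPM and 31.9 CPM. Of the 7 fibroblast genes 1, Postn, had a higher value in cKO (0.19, at a mean of 220 CPM) and was not called. Pericyte and smooth muscle genes summed to 80.4 CPM in WT and 32.6 CPM in cKO with 0 called. In bulk samples fewer cells of a type and less RNA per cell cannot be told apart. Endothelial and mural cells also use Notch1, Notch3, Jag1, Jag2 and Hes1, and the part of these cells in the values of those genes was not tested. Macrophage and dendritic genes had 0 of 3 called, with 2 lower values and 1 higher value (Cd68, 1.46).

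The targeted gene Nfe2l2 had a log2 fold change of -1.99 at 189 CPM (95% interval -3.33 to -0.65) and did not pass (adjusted p = 0.126 in the authors' deposited table). With the empirical null on the p-values of the authors' deposited table it had adjusted p = 0.0155. Of 13 NRF2 target genes 1 was called, Gpx2, at -4.69 and 1.44 CPM in the authors' deposited table, and their median was -0.100. At an unadjusted p under 0.05, 4 of the 13 passed, beside 8.36% of all genes in the authors' deposited table. All 4 had lower values: Gpx2, the cystine transporter gene Slc7a11 (-2.93), the glutathione reductase gene Gsr (-2.18) and the ferritin gene Ftl1 (-1.67). Of the 13 genes, 9 had lower and 4 had higher values, the highest being Nqo1 at 1.33. With the empirical null 3 of the 13 were called, Gpx2, Slc7a11 and Gsr, beside 5.22% of all genes. Ddx3y, on the Y chromosome, had -9.51 in the authors' deposited table, which is 70.5 CPM in WT and 0.097 CPM in cKO. The labels do not give the sex of the mice. For every fold change here, a difference in sex between the groups cannot be told apart from genotype.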

How the data were processed

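RNA-seq of sorted wound keratinocytes was compared between 2 Nrf2 cKO and 3 WT samples. The submitters' processing notes name build mm10 and the tools STAR 2.6.0c, Trimmomatic 0.35 and RSEM. Which tool made the comparison and which libraries entered it are not given in the sources used here. The authors deposited log2 fold changes, mean levels in log2 CPM, p-values and FDR values for 10664 genes, per the file headers. Depth per sample is unknown. Text notes beside 2 negative entries of a second sheet of 278 genes mark them as higher in the knockout, so signs were turned round to cKO relative to WT. Levels were taken as base 2, since they summed to 1.00436e+06. Symbols for 10655 genes and positions came from GENCODE vM21 of the same build, and promoters from RefSeq.

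Calls are the authors' FDR under 0.05 over all genes. The standard errors used the 200 nearest genes with absolute log2 fold changes of 0.5 to 3; they follow the authors' p-values, which for genes of like level and fold were nearly alike (5th to 95th percentile of the ratio 0.620 to 0.629 around Notch1, but 0.641 to 0.971 around Lfng), so at such levels as that of Notch1 they do not carry each gene's own spread. Whether replicates are separate animals is not stated, so that spread may be technical. The adjustments and the error estimate were run on simulated data, in which p-values were made directly from the simulated errors. Such a run checks the code and cannot show that the estimates hold for these data. The members and lists were chosen with earlier results of these data known. Named genes were all members and, by rule, up to 4 of smallest p per list; Krt5, Krt14, Krt1, Krt10, Numb, Cdkn1a, Gpx2 and Ddx3y were partly chosen after their values were seen. Some genes that the rule takes are not reported here. Computation used SciPy 1.17.1, NumPy 2.4.6, matplotlib 3.10.9 and pandas 2.3.3 under Python 3.11.15.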

Additional observations from a re-analysis of the deposited data

How the results depend on the processing

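The count of 0 called Notch genes was the same with a level filter of 5 CPM (which kept 8 of the 9), the Benjamini-Yekutieli adjustment, a threshold of 0.01 and a minimum absolute log2 fold change of 1. The last 3 of these can add no call by construction, while the level filter changes the adjusted p itself. With the empirical null on p-values of the authors' deposited table the count was 1, Lfng (adjusted p = 0.0464), and with its SD taken from the median absolute deviation, chosen after seeing the data, it was also 1 (0.0372). Over all alternatives the adjusted p of Lfng ran from 0.0372 to 1. Of the further pathway genes 1, Dtx4, was called with either empirical null on p-values of the authors' deposited table (adjusted p = 0.0287 and 0.0224). Over all genes the calls numbered 278, and 104 with the level filter, 116 with Benjamini-Yekutieli, 152 at 0.01, and 557 and 593 with the empirical nulls. Centring on the median of all genes, a shift of 0.0040, turned no sign among the Notch genes, and centring on the basal keratinocyte median of -0.24 turned Notch3 and Dll1 to higher values. Weighing the genotypes as 3 to 2 moved the level of a Notch gene by at most 12.5%, and 500 nearest genes moved a standard error by at most 5.38%, both chosen after seeing the data. Leaving out a replicate was not run, since no value per sample was analysed. No paired analysis was possible because the comparison carries no value per sample. Depth per sample is unknown, so what it limits could not be given.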
